A study of Rattus norvegicus with 20 samples.

Results

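Target genes of the transcription factor p53 were followed in a rat β-cell line in which the mechanosensitive ion channels Piezo1 and Piezo2 were targeted with siRNA. The set held 10 named genes, chosen by symbol: Mdm2, Cdkn1a, Ccng1, Aen, Bax, Bbc3, Phlda3, Eda2r, Zmat3 and Sesn1. Of these, 9 were found among the 23487 genes of the deposited expression table, and Bbc3 was not analysed here. All 9 passed the filter on low values, a value above 0 in at least 50% of the 20 libraries, with which 15802 genes were tested, but Eda2r passed it with at most 6 reads in any library.

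INS-1 832/13 cells, a clonal insulin-secreting line derived from a rat insulinoma, were cultured in medium with 11.1 mM glucose and seeded at 150000 cells per well. There were 5 groups of 4 libraries each. Untransfected cells received no siRNA, si-Ctrl cells a non-targeting siRNA, si-P1 cells a pool of siRNAs against Piezo1, si-P2 cells a pool against Piezo2, and si-P1+2 cells both pools. The siRNAs were used at 25 nM, the transfection was repeated after 48 h, and RNA was collected 48 h after that. All groups were the same clone, and the labels do not say whether the libraries of a group came from separate cultures, and the p-values may then rest on technical spread alone.

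p53 is a transcription factor that is held at a low level by the ubiquitin ligase Mdm2 and accumulates after DNA damage and other stresses. It then raises transcription of genes that stop the cell cycle, trigger apoptosis, limit growth signals and, through Mdm2, shut p53 itself off again. In β-cells, which divide rarely in the adult and tolerate damage poorly, the pathway is known for its part in growth arrest, senescence and cell death.

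Binding sites of p53 are 2 copies of a 10-base half-site that lie next to each other or close together. The 300 bases around the start of each gene (250 before and 50 after) were searched for them in RefSeq sequence of build GRCr8, a later build than the one used for counting. Windows were found for 7 of the 10 genes. The search took the p53 half-site consensus, which reads the same on both strands, and a full site was a pair of half-sites separated by at most 1 base, with the core intact and at most 3 mismatches in 20 bases. The 4 promoters below are shown because they hold a match, and because Aen and Sesn1 were called in a silenced group against si-Ctrl and Cdkn1a, Ccng1 and Aen by replicate number. Phlda3 was also called in a silenced group, but its window held no match and is not shown. A link between match and call was not tested. Each promoter shown is the 250 bases before the start, 5′ to 3′ on the strand of the gene, with the match in capitals.
Cdkn1a, chr20:7150682-7150931, plus strand: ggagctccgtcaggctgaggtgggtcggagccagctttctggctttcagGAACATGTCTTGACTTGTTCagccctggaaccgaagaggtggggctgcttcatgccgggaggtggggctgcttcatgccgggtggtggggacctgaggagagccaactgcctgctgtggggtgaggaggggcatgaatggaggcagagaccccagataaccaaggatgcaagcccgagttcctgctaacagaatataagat
Aen, chr1:142224283-142224532, plus strand: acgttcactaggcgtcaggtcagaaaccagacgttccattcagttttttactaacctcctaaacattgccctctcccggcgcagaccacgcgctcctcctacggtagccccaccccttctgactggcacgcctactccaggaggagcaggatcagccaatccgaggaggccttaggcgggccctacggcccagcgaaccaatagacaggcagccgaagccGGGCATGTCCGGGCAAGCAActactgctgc
Ccng1, chr10:25684877-25685126, minus strand: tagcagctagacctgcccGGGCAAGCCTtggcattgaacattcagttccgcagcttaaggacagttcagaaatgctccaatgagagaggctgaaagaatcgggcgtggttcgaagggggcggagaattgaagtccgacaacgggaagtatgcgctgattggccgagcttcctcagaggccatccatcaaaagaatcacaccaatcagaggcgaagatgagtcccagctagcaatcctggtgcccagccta
Sesn1, chr20:46948469-46948718, plus strand: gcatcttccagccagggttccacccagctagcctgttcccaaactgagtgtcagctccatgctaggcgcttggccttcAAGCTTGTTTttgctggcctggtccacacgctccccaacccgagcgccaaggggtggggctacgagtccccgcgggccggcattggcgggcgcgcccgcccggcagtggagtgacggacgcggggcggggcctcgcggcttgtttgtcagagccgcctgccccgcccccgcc

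The Cdkn1a window held a full site with 1 mismatch, 201 to 182 bases before the start, and the Aen window a full site with 2 mismatches, 30 to 11 bases before the start. Ccng1 and Sesn1 each held a single half-site without a mismatch, 232 to 223 and 172 to 163 bases before the start. Among all 33469 promoters of the table, 1.05% held a full site and 7.98% a perfect half-site. Of the 29 promoters found for 33 other known p53 targets, 1 held a full site, that of Pmaip1, which encodes the apoptosis inducer Noxa, and 4 (13.8%) a perfect half-site. The windows of Mdm2, Phlda3 and Eda2r held neither. A match describes the letters of this window only.

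The libraries held 16679934 to 56926609 reads assigned to genes. Piezo1 was at 313 ± 17.3 normalized counts in si-Ctrl (SD, n = 4), 125 ± 13.2 in si-P1 and 127 ± 15.4 in si-P1+2. Piezo2 was near its detection limit in every group (3.71 to 16.3). It was not called in si-P2 against si-Ctrl, so these values do not show that it was silenced there. Silenced groups are named here by the siRNA they received. The library of si-Ctrl numbered 3 stood apart from the other controls. It held 3343 normalized counts of Bax against 2102 to 2224 in the other si-Ctrl libraries, 105 of Zmat3 against 229 to 323, and 624 of Phlda3 against 401 to 479.7. The 12 β-cell markers were detected in every group, with a summed level of 605413 to 941155 normalized counts. The 4 immune markers summed to 6.64 to 24.8, the 4 endothelial markers to 28.9 to 69.7, the 6 duct and acinar markers to 249 to 535 and the 6 markers of other islet cells to 1233 to 3341. Of 6 fibroblast markers, the collagen genes Col1a1, Col1a2 and Col3a1 and the matrix genes Dcn and Lum stayed below 5 normalized counts, and Pdgfra was higher in si-P1 (258 to 278) than in si-Ctrl (127 to 215). The part of Pdgfra-expressing cells in the results was not tested.

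In all comparisons, a gene was called when the adjusted p-value of limma, fitted on log2(normalized count + 1) over the 5 groups and adjusted by Benjamini-Hochberg over the 15802 genes, was under 0.05. Silencing Piezo1 lowered 2 of the 9 genes, Aen and Sesn1, and raised none, where 13.3% of all genes tested were called, 7.07% higher and 6.28% lower. In si-P2, 1 of 9 was called lower, Phlda3, with 2.08% of all genes called, 0.88% higher and 1.2% lower. In si-P1+2, 1 of 9 was called lower, Aen, with 4.76% of all genes called, 2.41% higher and 2.35% lower. With the replicate number as a block, 3400 genes were called in si-P1 in place of 2109, and the calls among the 9 genes in si-P1 did not change. The block added Aen in si-P2, where 1367 of all genes were called in place of 328, and Sesn1 in si-P1+2, with 1788 in place of 752. In these 2 comparisons, same-numbered libraries deviated together less uniformly than in si-P1. The median log2 difference of the 9 genes was -0.09 in si-P1, -0.00058 in si-P2 and -0.06 in si-P1+2, and that of all genes 0.02, 0.01 and 0.02. The 3 comparisons share the si-Ctrl libraries and are not independent.

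**Figure D1:**
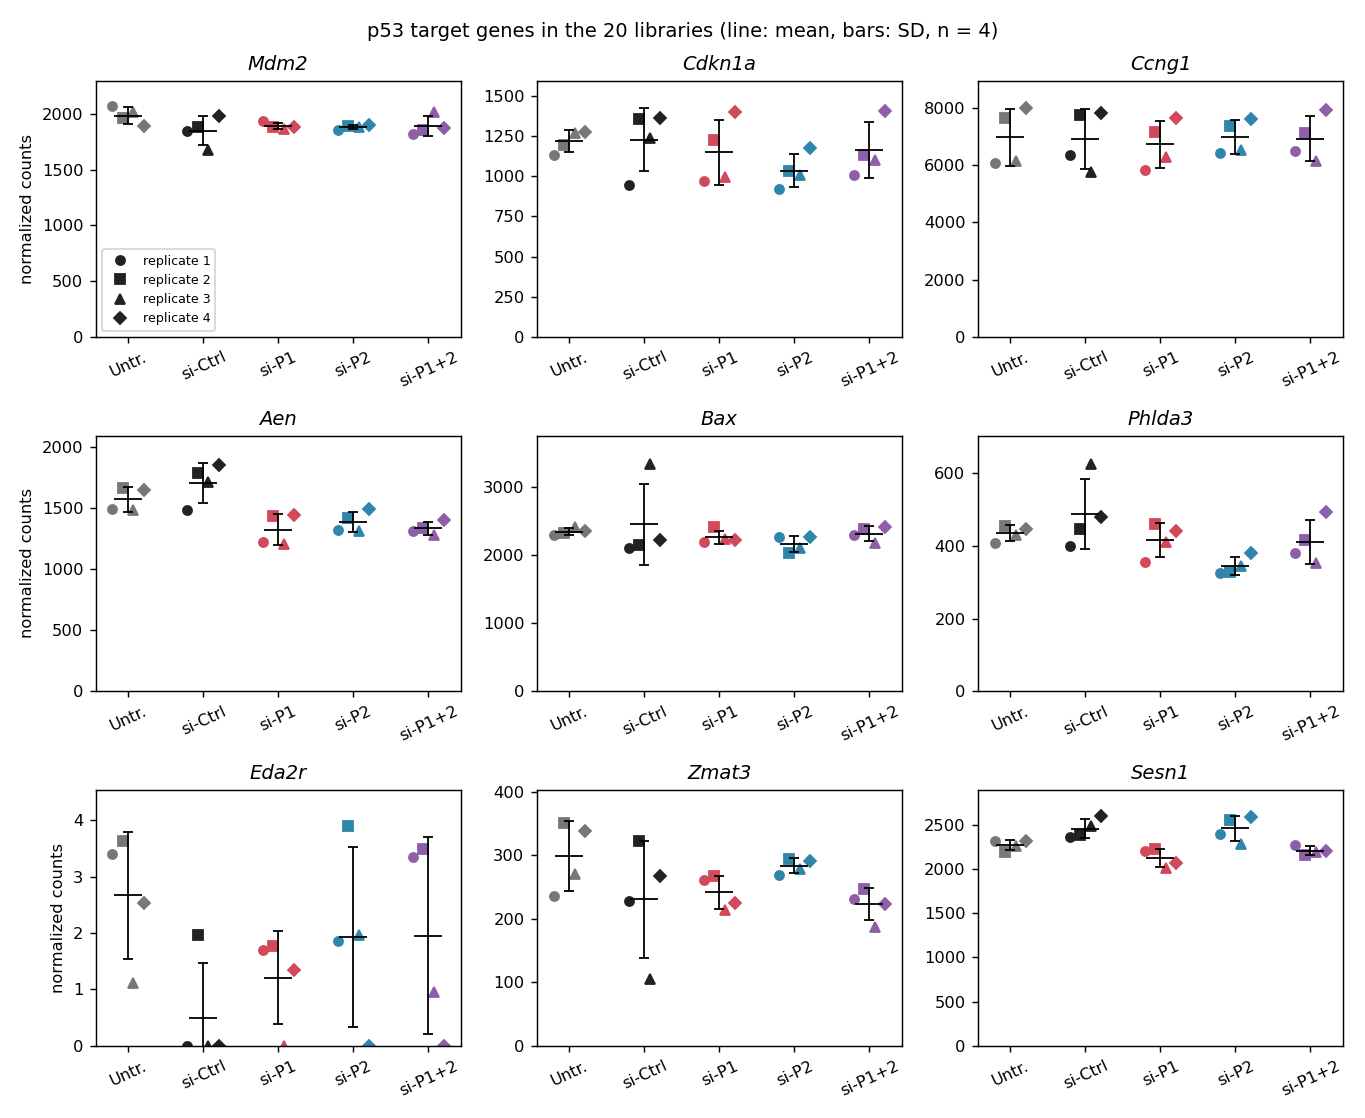
Normalized counts (y axis, from 0) of the 9 p53 target genes in the 20 libraries, by group (x axis, Untr.: untransfected). Each point is a library, its shape gives the replicate number, the line is the group mean and the bars are the SD (n = 4). Aen lies between 1205 and 1492 in the silenced groups and between 1482 and 1853 in the controls, and the si-Ctrl library numbered 3 is high for Bax and low for Zmat3.

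Mdm2, the ubiquitin ligase that marks p53 for degradation and is itself a p53 target, varied little. It was at 2068, 1968, 2017 and 1889.6 normalized counts in the untransfected libraries, at 1847, 1886, 1674 and 1986 in si-Ctrl, and at 1934, 1883, 1864 and 1885 in si-P1. In si-P2 it was at 1856, 1892, 1881 and 1905, and in si-P1+2 at 1822, 1856, 2019 and 1871. The groups overlapped in every comparison. The log2 difference from si-Ctrl was 0.04 (95% confidence interval -0.08 to 0.15) in si-P1, 0.03 (-0.08 to 0.14) in si-P2 and 0.04 (-0.08 to 0.15) in si-P1+2.

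Cdkn1a encodes p21, the inhibitor of cyclin-dependent kinases that carries out the G1 arrest by p53. It was at 1132, 1195, 1268 and 1276 normalized counts in the untransfected libraries, at 946, 1358, 1239.7 and 1365 in si-Ctrl, and at 971, 1227, 998 and 1402 in si-P1. It was at 921, 1036, 1009 and 1174 in si-P2 and at 1005, 1131, 1103 and 1409 in si-P1+2. The highest library was 1.53-fold above the lowest, and all groups overlapped. The log2 difference from si-Ctrl was -0.10 ± 0.13 (SE) in si-P1, -0.24 ± 0.13 in si-P2 and -0.07 ± 0.13 in si-P1+2, and none was called (limma adjusted p = 0.70, 0.30 and 0.84).

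Ccng1 encodes cyclin G1, which binds a phosphatase that acts on Mdm2. Its group means lay between 6730.0 and 6984 normalized counts, a range of 1.04-fold, with an SD within groups of 597 to 1035. The 5 groups overlapped, and the log2 difference from si-Ctrl was -0.03 ± 0.12 (SE) in si-P1, 0.02 ± 0.12 in si-P2 and 0.01 ± 0.12 in si-P1+2. The limma F test over the 5 groups gave an adjusted p of 0.99.

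Aen, a nuclease that digests DNA in apoptosis downstream of p53, showed the clearest difference. It was at 1482, 1791, 1712 and 1853 normalized counts in si-Ctrl and at 1491, 1665, 1482 and 1649.8 in the untransfected libraries. It was at 1220.0, 1433, 1205 and 1443 in si-P1, at 1325, 1418, 1316 and 1492 in si-P2 and at 1311, 1339, 1283 and 1405 in si-P1+2. Every si-P1 and si-P1+2 library lay below every si-Ctrl and every untransfected library, whereas si-P2 overlapped both. Libraries did not overlap for 14.1% of all genes between si-P1 and si-Ctrl and for 9.08% between si-P1+2 and si-Ctrl, and against the untransfected libraries for 28.8% (si-P1) and 21.7% (si-P1+2).

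On the log2 scale Aen fell by 0.37 in si-P1 (SE 0.079, limma adjusted p = 0.00367) and by 0.35 in si-P1+2 (adjusted p = 0.0116). In si-P2 the difference was -0.30 with the same SE and was not called (adjusted p = 0.0565), but it was called with the replicate number as a block (0.00163). The block pairs libraries by number, and same-numbered libraries of si-P2 and si-Ctrl deviated together only in part (r = -0.17 to 0.361). Without the si-Ctrl library numbered 3, the log2 difference was -0.36 in si-P1 (adjusted p = 0.00289), -0.29 in si-P2 (0.0595) and -0.35 in si-P1+2 (0.0077). Against the untransfected libraries in place of si-Ctrl, Aen fell by 0.25 in si-P1 (adjusted p = 0.0332), and the log2 difference in si-P1+2 was -0.23 (0.0744) and in si-P2 -0.18 (0.363). The difference of si-P1 from si-P2 was -0.07 (95% confidence interval -0.23 to 0.09, adjusted p = 0.61), and that of si-P1+2 from si-P1 was 0.01 (-0.15 to 0.18). The interaction, by which the effect of both siRNAs together departs from the sum of each alone, was 0.31 ± 0.111 (SE, limma adjusted p = 0.40, and 0.0358 with the block). These are bulk libraries, in which fewer cells that express a gene and less of its RNA per cell cannot be told apart.

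Bax encodes the pore-forming protein of the mitochondrial outer membrane in apoptosis. It was at 2295, 2319.8, 2417 and 2349.8 normalized counts in the untransfected libraries and at 2102, 2148, 3343 and 2224 in si-Ctrl. It was at 2194, 2409, 2236 and 2219.8 in si-P1, at 2262, 2037, 2103 and 2262 in si-P2, and at 2290.4, 2383, 2176 and 2421 in si-P1+2. All silenced groups overlapped si-Ctrl, and the log2 differences of -0.09, -0.15 and -0.06 (SE 0.103) were not called (limma adjusted p = 0.64, 0.39 and 0.85). Every si-P2 library lay below every untransfected library (12.3% of all genes did not overlap between these groups), with a log2 difference of -0.12 (adjusted p = 0.75). The mean of si-Ctrl was 2454 with the library numbered 3 and 2158 without it.

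Phlda3, a membrane-binding protein that opposes the kinase Akt, was lowest in si-P2. It was at 401, 445, 624 and 479.7 normalized counts in si-Ctrl, at 326, 328, 346 and 380.3 in si-P2, and at 407, 456, 429 and 447 in the untransfected libraries. The si-P2 libraries lay below all libraries of both control groups, and 8.61% of all genes did not overlap between si-P2 and si-Ctrl and 12.3% between si-P2 and untransfected cells. The si-P1 libraries (355, 460.4, 409 and 441) and the si-P1+2 libraries (381, 417, 353 and 493) overlapped both control groups. Phlda3 fell by 0.48 on the log2 scale in si-P2 (SE 0.124, limma adjusted p = 0.0498). The difference shrank to -0.36 without the si-Ctrl library numbered 3 and was then not called (adjusted p = 0.0854), nor was that of -0.33 against the untransfected libraries (0.256). Between si-P1 and si-P2 the log2 difference was 0.27 (95% confidence interval 0.0071 to 0.53) and was not called (adjusted p = 0.17).

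Zmat3, an RNA-binding protein that regulates splicing, was at 229, 323, 105 and 267 normalized counts in si-Ctrl. In si-P1 it was at 261, 267, 213 and 225, in si-P2 at 269, 295, 279 and 291, and in si-P1+2 at 232, 248, 188 and 223. The untransfected libraries held 236, 351, 271 and 338. All silenced groups overlapped si-Ctrl, and the log2 differences of 0.17, 0.41 and 0.05 (SE 0.231) were not called (limma adjusted p = 0.70, 0.31 and 0.94). Every si-P1 library lay below every si-P2 library (27.1% of all genes did not overlap between these groups), with a log2 difference of -0.24 (adjusted p = 0.55).

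Sesn1 encodes sestrin 1, which restrains growth signalling through mTORC1. It was at 2362, 2379, 2481 and 2597 normalized counts in si-Ctrl, at 2199.6, 2224, 2007 and 2069 in si-P1, and at 2395, 2554, 2282 and 2589 in si-P2. It was at 2268, 2155, 2193 and 2203 in si-P1+2 and at 2311, 2190.0, 2256 and 2311 in the untransfected libraries. The si-P1 libraries lay below all si-Ctrl and all si-P2 libraries, and the si-P1+2 libraries below all si-Ctrl libraries, but both overlapped the untransfected libraries. Of all genes, 14.1% did not overlap between si-P1 and si-Ctrl, 27.1% between si-P1 and si-P2 and 9.08% between si-P1+2 and si-Ctrl. The untransfected libraries in turn lay below all si-Ctrl libraries, and 4.08% of all genes did not overlap between these 2 groups.

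Sesn1 fell by 0.21 in si-P1 against si-Ctrl on the log2 scale (SE 0.053, limma adjusted p = 0.0119). It fell by 0.21 against si-P2 (adjusted p = 0.0116), where it was the 1 gene of 9 called and 14.7% of all genes were called, 8.22% higher and 6.49% lower. In si-P1+2 the log2 difference from si-Ctrl was -0.15 (adjusted p = 0.11, and 0.0496 with the block), and in si-P2 it was -0.00058 (95% confidence interval -0.11 to 0.11). Against the untransfected libraries the log2 difference in si-P1 was -0.09 and was not called (adjusted p = 0.243). Without the si-P1 library numbered 3 the difference from si-Ctrl was -0.18 (adjusted p = 0.0524) and that from si-P2 -0.18 (adjusted p = 0.0502), and neither was then called.

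Eda2r, a receptor of the tumour necrosis factor family for ectodysplasin A2, was at its detection limit. It had no read in 6 libraries and 1 to 6 reads in the other 14, which corresponds to at most 3.9 normalized counts. It was at 3.4, 3.62, 1.12 and 2.52 normalized counts in the untransfected libraries, and in si-Ctrl at 1.96 in the library numbered 2 and 0 in the others. No fold change is given at this depth, and the p-values of Eda2r rest on these few reads.

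**Figure D2:**
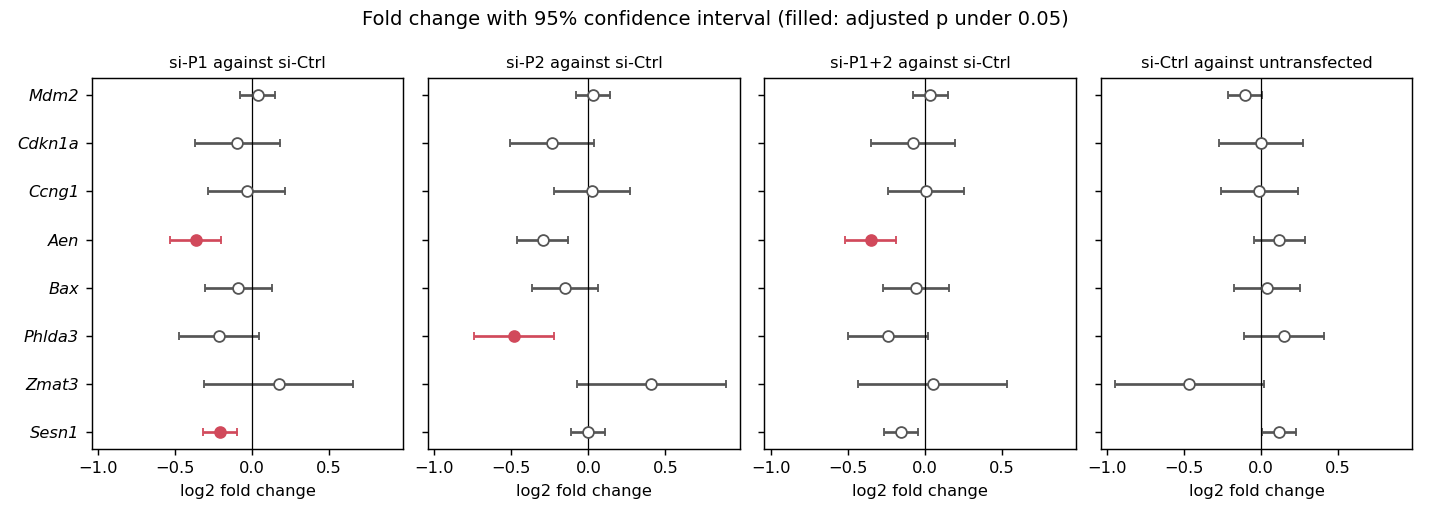
Log2 fold change (x axis) with its 95% confidence interval for 8 of the genes (y axis) in each silenced group against si-Ctrl and in si-Ctrl against untransfected cells, from the limma fit. Filled points were called: Aen and Sesn1 in si-P1, Phlda3 in si-P2 and Aen in si-P1+2, all below 0. Eda2r, with 6 reads or fewer, is left out.

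Between the control groups, 0 of the 9 genes called between si-Ctrl and untransfected cells (limma), where 0.0886% of all genes were called, 0.0696% higher and 0.019% lower. Sesn1 and Eda2r had an unadjusted p under 0.05, and DESeq2 and edgeR on the recovered reads also called 0. Between si-P1+2 and si-P1, 0 of 9 genes were called (0.0443% of all genes), with 0 at an unadjusted p under 0.05 and 0 by DESeq2 and edgeR, and all 9 overlapped, where 5.86% of all genes did not. For the interaction of the siRNAs, 0 of 9 were called (0.00633% of all genes), with Aen and Phlda3 at an unadjusted p under 0.05 and 0 by DESeq2 and edgeR. Any difference among the 5 groups was called for 2 of 9, Aen (limma F test, adjusted p = 0.0058) and Sesn1 (0.0187), where 17.7% of all genes were called, and Phlda3 was at 0.078 (0.0282 with the replicate block, which called it). Among the genes most like Aen over the 20 libraries was Bri3bp (r = 0.94), of 10907 genes searched. Those most like Sesn1 were Celf3 (r = 0.885) and Sema6b (r = 0.883). These correlations share the groups and the libraries and describe these data only.

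For 3 genes, Ccng1, Cdkn1a and Aen, libraries that carry the same replicate number resembled each other across groups, a pattern noticed after the values were seen. Ccng1 was at 7141 to 8015 normalized counts in the 10 libraries numbered 2 and 4 and at 5749 to 6530.1 in the 10 numbered 1 and 3, without overlap across the 5 groups. The ratio of the means was 1.23. Within each of the 5 groups, libraries 2 and 4 also lay above libraries 1 and 3 for Aen, with a ratio of 1.12, and the same held in 4 groups for Cdkn1a, with a ratio of 1.19. Among 10971 genes with a mean of at least 100 normalized counts, libraries 2 and 4 lay above 1 and 3 in all 5 groups for 5.28%, and below for 4.51%. The labels give the numbers no meaning, and the cause was not tested.

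With the replicate number as a term beside the group, limma called 3 of the 9 genes by its F test, where 19.8% of all genes were called. They were Ccng1 (adjusted p = 2.94e-05), Cdkn1a (0.00249) and Aen (0.0065). Cdkn1a was lowest in the library numbered 1 and highest in that numbered 4 in each of the 5 groups, and the log2 difference between these numbers was 0.41. For Mdm2 (adjusted p = 0.99), Bax (0.69) and Sesn1 (0.61) the numbers were not told apart. Without the si-Ctrl library numbered 3, 6 of 9 genes were called and 40.9% of all genes (20.5% with the libraries numbered 4 above those numbered 1), Phlda3 (adjusted p = 0.00966), Zmat3 (0.0286) and Eda2r (0.0489, with at most 6 reads) being added. Deviations from the group means over the 20 libraries correlated at r = 0.854 between Cdkn1a and Aen, 0.814 between Ccng1 and Aen and -0.03 between Mdm2 and Aen. Cdkn1a, Ccng1 and Aen were singled out for their shared pattern by number, so their high r restates that choice. Between Bax and Zmat3, r was -0.74 with the si-Ctrl library numbered 3 and 0.269 without it.

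**Figure D3:**
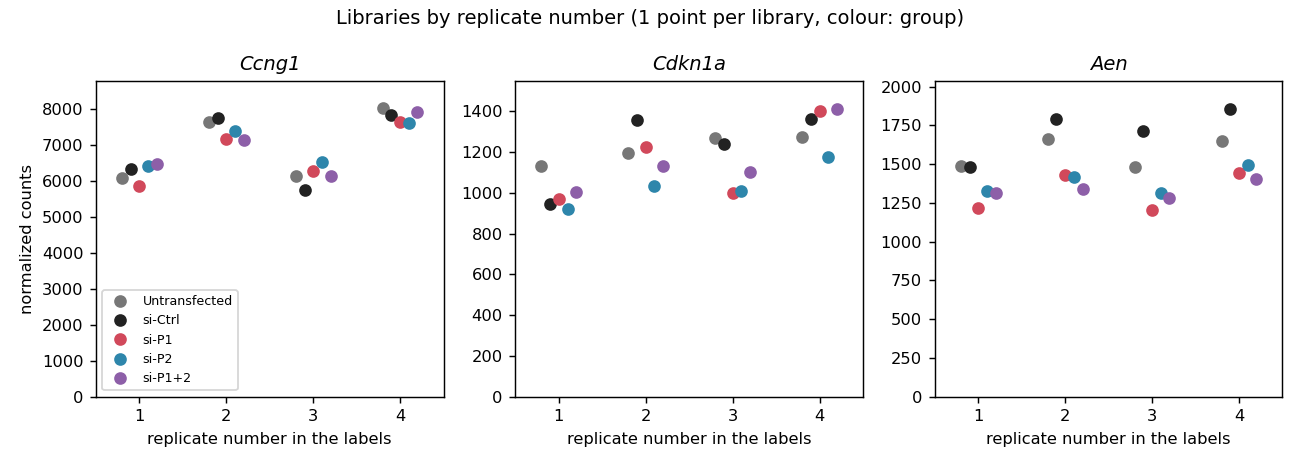
Normalized counts (y axis, from 0) of Ccng1, Cdkn1a and Aen by the replicate number of the labels (x axis), 1 point per library, coloured by group. For Ccng1 the libraries numbered 2 and 4 sit at 7141 to 8015 and those numbered 1 and 3 at 5749 to 6530.1.

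Other genes around p53 were read in lists of known function. Of 31 other p53 targets tested, 10 were called by replicate number in the same F test, and 8 were called and higher in the libraries numbered 4 than in those numbered 1, as were 10.1% of all genes. Gadd45a, a growth arrest gene, was at 767, 990.3, 744, 766 and 834 normalized counts in the libraries numbered 1 (untransfected, si-Ctrl and then the silenced groups in the order Piezo1, Piezo2, both) and at 1262, 1632, 1258, 1147 and 1450.3 in those numbered 4. Of 23 cell cycle genes that p21 represses through the DREAM complex, 20 were called and all 20 were higher in the libraries numbered 4 than in those numbered 1. Of all genes, 19.8% were called by this F test and 10.1% were called and higher in the libraries numbered 4. The log2 differences of the 20 genes ran from 0.24 for Foxm1 to 0.68 for Mki67, a marker of dividing cells. Cdkn1a was also higher in the libraries numbered 4, and a link between it and these genes was not tested. Gadd45a and Mki67 were chosen after their values were seen.

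By group, the other p53 targets moved in both directions. In si-P1, 2 of 31 rose and 3 fell, where 7.07% of all genes were higher and 6.28% lower, with a median log2 difference of -0.01 beside 0.02 for all genes. Ninj1, a membrane protein that ruptures the plasma membrane in cell death, was at 4559.6, 5192, 6752 and 5288 normalized counts in si-Ctrl and at 3316, 3943, 3706 and 3603 in si-P1. It was named by a rule that asks for no overlap, which 14.1% of all genes showed between these groups. Ninj1 fell by 0.57 on the log2 scale in si-P1 (limma adjusted p = 0.000683), by 0.53 in si-P2 (0.00854) and by 0.46 in si-P1+2 (0.00954). The si-Ctrl library numbered 3, which stood apart, was the highest control at 6752, and a fit without it is not given for Ninj1. Sesn2, the paralog of Sesn1, fell by 0.36 in si-P1 (adjusted p = 0.00034) and by 0.24 in si-P1+2 (0.0203), and its log2 difference in si-P2 was -0.04. Btg2, an antiproliferative gene, fell by 0.46 in si-P1 (adjusted p = 0.0185) and by 0.46 in si-P1+2 (0.0425). The genes that rose were Cd82, a tetraspanin, by 0.40 in si-P1 (adjusted p = 0.000845), and Tigar, which slows glycolysis, by 0.26 in si-P1 (0.00138) and by 0.21 in si-P2 (0.0353). In si-P2, 1 of 31 rose and 1 fell, where 0.88% of all genes were higher and 1.2% lower. In si-P1+2 3 fell and none rose, where 2.35% of all genes were lower and 2.41% higher. Between si-P1 and si-P2, 4 of 31 were called, 2 higher and 2 lower. Of all genes, 14.7% were called in that comparison, 8.22% higher and 6.49% lower.

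Mdm4, an inhibitor of p53 related to Mdm2, was at 732, 846, 266 and 833 normalized counts in si-Ctrl. In si-P1 it was at 515, 546, 512 and 658, with a log2 difference of -0.13 that was not called (limma adjusted p = 0.78). The si-Ctrl library at 266 is the one that stood apart from the other controls. All other si-Ctrl libraries (732 to 846) lay above all si-P1 libraries (512 to 658). With the library at 266, the groups overlapped. This separation rests on leaving out a library after its value was seen, and its share over all genes was not counted. A fit without that library is not given for Mdm4. The missing call therefore does not show that Mdm4 was unchanged, and these values do not show that it fell. Ppm1d, a phosphatase that switches p53 signalling off, differed from si-Ctrl by -0.09 in si-P1, -0.01 in si-P2 and -0.08 in si-P1+2 on the log2 scale and was not called either. Of 19 genes of the list of regulators tested, 1 rose in si-P1, where 7.07% of all genes were higher. This was the checkpoint kinase gene Chek1, by 0.31 (adjusted p = 0.0191). In si-P2 1 fell, where 1.2% of all genes were lower: Cop1, a ubiquitin ligase for p53, by 0.29 (0.0251).

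Among 9 tested genes of the Bcl-2 family, to which Bax belongs, Bid alone was called in each silenced group. Of all genes, 13.3% were called in si-P1, 2.08% in si-P2 and 4.76% in si-P1+2. Bid, a BH3-only protein that activates Bax, was at 735, 889, 822 and 839.9 normalized counts in si-Ctrl, at 563, 747, 623 and 606 in si-P1, at 588, 603, 596 and 549.7 in si-P2 and at 583, 621, 586 and 617 in si-P1+2. All si-P2 and si-P1+2 libraries lay below all si-Ctrl libraries, and si-P1 overlapped them. Of all genes, 8.61% did not overlap between si-P2 and si-Ctrl and 9.08% between si-P1+2 and si-Ctrl. Bid fell by 0.38 in si-P1 (limma adjusted p = 0.00442), by 0.49 in si-P2 (0.00418) and by 0.45 in si-P1+2 (0.00327).

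Of 14 tested genes of the G1 phase, in which p21 acts, 3 were called in si-P1, 2 in si-P2 and 3 in si-P1+2, where 13.3%, 2.08% and 4.76% of all genes were called. Ccne2, cyclin E2, the partner of Cdk2, was at 1510.0, 1412, 883 and 1383 normalized counts in si-Ctrl and at 2220.0, 2181, 2119.6 and 2279 in si-P1, the library numbered 3 being the lowest. The naming rule asked for no overlap, which 14.1% of all genes showed between these groups. Ccne2 rose by 0.79 in si-P1 (limma adjusted p = 0.000117), by 0.63 in si-P2 (0.00652) and by 0.70 in si-P1+2 (0.00112). The untransfected libraries held 1717, 1948, 1849 and 2071, above all si-Ctrl libraries. Between these control groups, 4.08% of all genes did not overlap. E2f4, a repressor that belongs to the DREAM complex, fell by 0.74 in si-P1 (adjusted p = 7.04e-07) and by 0.52 in si-P1+2 (8.27e-05), and Cdk2 fell by 0.36 (0.000184) and by 0.28 (0.00523). Ccnd3, cyclin D3, fell by 0.35 in si-P2 (0.0228).

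Of the 23 cell cycle genes repressed through p21, 1 was called in si-P1 and in si-P1+2, Top2a, the DNA topoisomerase of dividing cells. Of all genes, 13.3% were called in si-P1 and 4.76% in si-P1+2. Top2a was at 9951, 10631, 7679 and 12207 normalized counts in si-Ctrl, at 4172, 4773, 4129 and 5411 in si-P1 and at 5260.3, 5467, 5272 and 5334 in si-P1+2. The naming rule asked for no overlap with si-Ctrl, which 14.1% of all genes showed in si-P1 and 9.08% in si-P1+2. Top2a fell by 1.12 on the log2 scale in si-P1 (limma adjusted p = 1.07e-05) and by 0.90 in si-P1+2 (0.000371), and in si-P2 it was at 9174, 10818, 9735 and 11475. The median log2 difference of the 23 genes was -0.05 in si-P1, -0.03 in si-P2 and -0.04 in si-P1+2. Of 9 tested paralogs of the p53 targets, 2 were called in si-P1 and 1 in si-P1+2, beside the same shares of all genes. Zmat4 fell by 0.69 in si-P1 (adjusted p = 0.000947) and by 0.59 in si-P1+2 (0.00784), and Phlda1 rose by 0.40 in si-P1 (0.0031).

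Between si-P1 and si-P2, where 14.7% of all genes were called, the called genes of these lists without overlap went in both directions. Of all genes, 27.1% did not overlap between these groups. Higher in si-P1 were Cd82 by 0.49 on the log2 scale (limma adjusted p = 0.00012), the early response gene Ier5 by 0.24 (0.0354), the Bcl-2 family effectors Bok by 0.64 (0.00433) and Bak1 by 0.28 (0.028), Ccnd3 by 0.57 (7.32e-05), Ccne1, cyclin E1, by 0.42 (0.00296) and Phlda1 by 0.32 (0.0137). Lower in si-P1 were Sesn2, with a log2 difference of -0.32 (adjusted p = 0.000864), Hipk2, a kinase that phosphorylates p53, with -1.01 (0.0373), E2f4 with -0.74 (4.08e-07), Cdk2 with -0.32 (0.000625), Top2a with -1.16 (7.16e-06) and Zmat4 with -0.54 (0.00646).

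**Figure D4:**
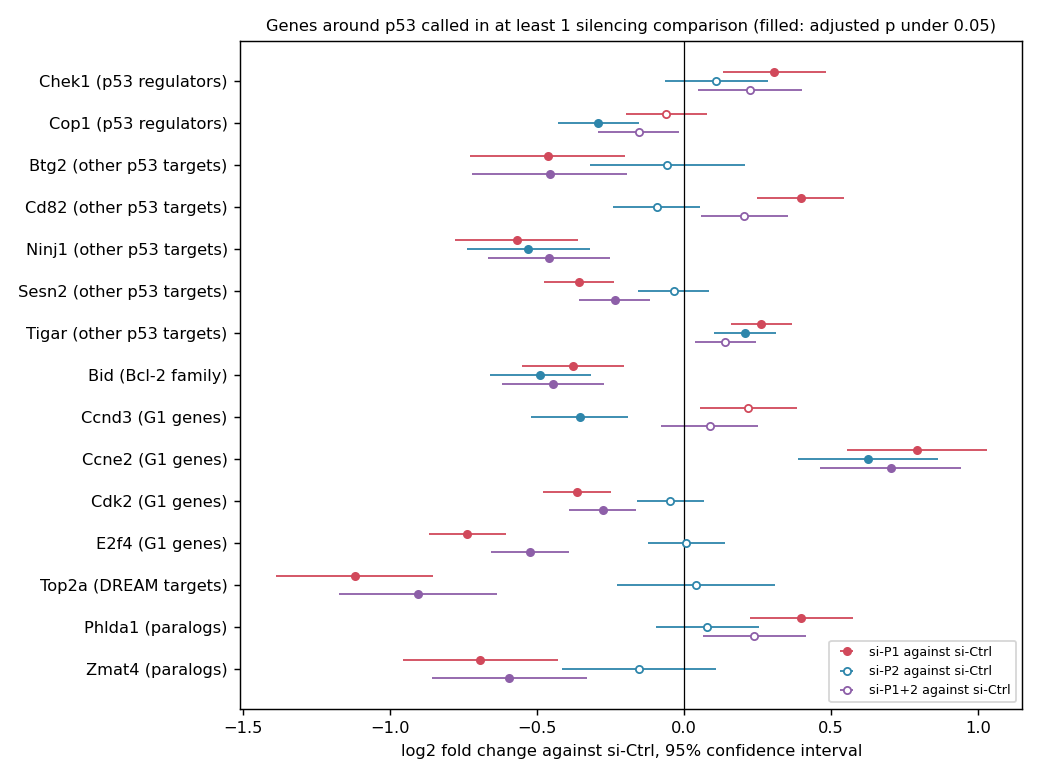
Log2 fold change against si-Ctrl (x axis, bars: 95% confidence interval) of the genes in the lists around p53 that were called in at least 1 silenced group (y axis, list in parentheses), from the limma fit. Filled points were called. Ninj1 and Bid lie below 0 and Ccne2 above 0 in all 3 groups, and Top2a and E2f4 lie below 0 in si-P1 and si-P1+2.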

How the data were processed

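Poly(A) RNA of 20 libraries was sequenced. The deposited values are counts per gene divided by size factors (a signal without a fixed unit), which the authors made from Salmon estimates (version 0.14.0, Rnor_6.0) with DESeq2 (1.25.10), per the labels. Salmon splits reads between similar genes, so paralogs are less certain. Whole reads were recovered for 100% of values (tolerance 0.001). Values were tested as log2(value + 1) with limma 3.58.1 (R 4.3.3), all groups in 1 fit with 15 residual degrees of freedom. DESeq2 1.42.0 and edgeR 4.0.16 were run on the recovered reads. A gene passed the filter with a value above 0 in 50% of the libraries. Procedures were tested on simulated data.

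All 10 listed genes are named, in order of role, with Mdm4 and Ppm1d. Of every other list, up to 4 genes called per comparison are named, those of smallest adjusted p without overlap between the groups. Bid and Btg2 in si-P1 are given beside the comparisons in which they meet this rule. For Aen and Sesn1, genes of the 2 highest Pearson r are named. Some genes that these rules name are not reported here. The genes and lists were chosen with earlier results of these data known. Same-numbered libraries deviated together in si-P1 against si-Ctrl (r = 0.111 to 0.559 over 11698 genes), si-Ctrl against untransfected (0.154 to 0.437), si-P1+2 against si-P1 (0.21 to 0.526) and si-P1 against si-P2 (0.261 to 0.42). The pairing comes from the data, since the labels give the numbers no meaning.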

Additional observations from a re-analysis of the deposited data

Results flagged for a closer look

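In 45 groups of 4 libraries (9 genes, 5 groups), the gap of the highest or the lowest library to its nearest neighbour was compared with the range of the group, and 2 gaps passed Dixon's 95% critical value. Chance passes about 1 in 20 groups. Bax was at 3343 normalized counts in the si-Ctrl library numbered 3, a gap of 0.902 of the range. Eda2r was at 1.96 normalized counts, 2 reads, in the si-Ctrl library numbered 2, with 0 in the other si-Ctrl libraries.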

How the results depend on the processing

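Aen in si-P1 and si-P1+2 kept its direction under all alternatives and was called in all except those with the compared groups alone (adjusted p = 0.0898 and 0.145) and, for si-P1+2, with untransfected controls (0.0744). By contrast, the calls of Phlda3 in si-P2 and Sesn1 in si-P1 depended on the setting. With quantile normalization, Phlda3 in si-P2 was not called (limma adjusted p = 0.0600), whereas Aen in si-P2 was (0.0469). The number of the 9 genes called in si-P2 was 0 with a pseudocount of 5, no filter, equal totals, no variance trend, the compared groups alone or untransfected controls, and 2 with a mean of at least 10 normalized counts, DESeq2 or the replicate block. Of all genes, the first 6 settings called 2.06%, 1.58%, 1.87%, 1.74%, 0.03% and 1.05%, and the last 3 called 2.97%, 5.19% and 8.65%. In si-P1 the number of the 9 genes called was 1 with equal totals (Sesn1 lost, adjusted p = 0.0548), 0 with the compared groups alone and 1 with untransfected controls (13.4%, 3.75% and 18.1% of all genes). In si-P1+2 it was 2 with DESeq2 or the replicate block (Sesn1 added, adjusted p = 0.0366 and 0.0496), 0 with the compared groups alone and 0 with untransfected controls (7.59%, 11.3%, 0.437% and 8.21% of all genes). For the interaction it was 1 with the replicate block (Aen, adjusted p = 0.0358). For any difference among the groups the block gave 3 (Phlda3 added, adjusted p = 0.0282), and it changed no other count of the 9 genes. Between si-Ctrl and either si-P2 or si-P1+2, the same-numbered libraries deviated together less uniformly (r = -0.17 to 0.361 and -0.03 to 0.449). Of the 4 pairs, 3 in si-P2 and 2 in si-P1+2 had r over 0.1, and 4 of 8 libraries correlated best with their own number in each. Leaving out 1 library at a time gave 1 to 2 genes in si-P1 (1 without the si-P1 library numbered 3), 0 to 2 in si-P2 (2 without the si-Ctrl library numbered 1), 0 to 1 between si-P1 and si-P2 (0 without the si-P1 library numbered 3), and 1 to 3 for any difference among the groups (1 without the si-P1 library numbered 3 or 4). Phlda3 in si-P2 was not called without the si-Ctrl library numbered 2 (adjusted p = 0.0526), 3 (0.0854) or 4 (0.0915), or without any 1 of the si-P2 libraries (0.0576 to 0.134). The count by replicate number, chosen after the data were seen, was 3 to 4 under the other settings and 6 without the si-Ctrl library numbered 3, and that of the other p53 targets went from 10 to 18. Over all genes, the compared groups alone gave 593 calls in si-P1 in place of 2109, 5 in si-P2 in place of 328 and 69 in si-P1+2 in place of 752, and 4072 between si-P1 and si-P2 in place of 2325. The replicate block gave 3400, 1367, 1788 and 3724, and without the si-Ctrl library numbered 3 there were 3820 in si-P1 and 2148 in si-P1+2. DESeq2 gave 820 in si-P2 and 1200 in si-P1+2, and untransfected controls 166 and 1298. Between si-Ctrl and untransfected cells, 14 calls became 103 with DESeq2, 207 with the block and 0 with the compared groups alone, between si-P1+2 and si-P1 7 became 62, 93 and 2, and for the interaction 1 became 87 with DESeq2 and 174 with the block. Any difference went from 2801 to 4837 with the block and 5382 without the si-Ctrl library numbered 3. With equal totals, 65% of the si-P1 calls were higher in place of 53%. The number of libraries limits small differences, and depth limits Eda2r.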
